A study of Mus musculus with 22 samples.

Results

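Doc2b and Camk2a, which encode calcium-dependent proteins of the synapse, were followed through all 22 RNA-seq libraries of a study of cerebellar Purkinje cells (PCs) that lack Tsc1. They are 2 of 66494 loci in each deposited table, and 2 of the 1832 loci that the supplementary files pair with a gene symbol. They were selected for their large decreases between genotypes in total RNA of sorted PCs, so this difference is given below as a description, with no test. Both passed the filter on low values in every comparison.

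The libraries held total RNA of sorted PCs (5 control and 5 mutant libraries) or, by translating ribosome affinity purification (TRAP), RNA bound to tagged ribosomes of PCs (3 control and 3 mutant libraries without rapamycin, and 3 of each genotype with it). Mutants (labelled CC) were Tsc1 fl/fl and controls (labelled WW) Tsc1+/+, on a C57BL/6 background. By the methods, animals of both genotypes carried L7Cre, in which the Pcp2 (L7) promoter drives Cre in PCs, together with L7GFP, the marker used for sorting, or with Rosa26fsTRAP, which gives GFP-tagged ribosomes after recombination. The text on the sorted animals describes the controls without Cre, so that Cre in the sorted controls is uncertain. The ages of the sorted animals differed (P21 or P42) and are not given per library, and neither the age of the TRAP animals nor the dose and schedule of rapamycin was given in the sources used here. By the methods, libraries were made per animal, but controls 144a and 144b carry 1 animal number.

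DOC2B is a cytosolic protein with a pair of C2 domains that bind calcium with high affinity, and it joins the SNARE machinery of vesicle fusion, where it takes part in spontaneous and delayed transmitter release. CAMK2A is the alpha subunit of calcium/calmodulin-dependent protein kinase II (CaMKII), a large holoenzyme that calmodulin activates when calcium rises and that then phosphorylates itself and many partners of the postsynaptic density. In PCs, CaMKII takes part in the plasticity of parallel fibre synapses, and the beta subunit, encoded by Camk2b, is prominent beside the alpha subunit. TSC1 belongs to the complex that restrains the kinase mTORC1, and rapamycin inhibits mTORC1.

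Doc2b (locus XLOC_010015) is encoded on the minus strand of chromosome 11 (GRCm38), between positions 75768966 and 75796049, and its reference transcript has 9 exons and 4361 bases. The gene Gm12339 on the plus strand overlaps its 5' end by 1282 bases, of which 241 are exonic in both, and fragments of the shared exon bases cannot be assigned to one of them where strand is not known, as with the kit named for the sorted libraries. Camk2a (locus XLOC_027494) is encoded on the plus strand of chromosome 18, between positions 60925618 and 60988152, with 18 exons and 4970 bases in its reference transcript. Only a pair of microRNA genes overlap it, and they share no exon bases with it.

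Depth was 43.3 to 86.3 M fragments per sorted library and 2.47 to 6.38 M per TRAP library. Of the 10 PC markers with a named locus, none was listed at 0 in all libraries of a group, and their summed value was 461770 to 813670 in sorted controls and 317080 to 584550 in sorted mutants. No locus was named for Tsc1, so that the genotype labels were not checked on it. TRAP mutant 3 stood apart, with 40.5% of its total in the 10 highest loci, against 58.3% to 72.6% in the other TRAP libraries.

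In total RNA of sorted PCs, Doc2b was 10.2-fold and Camk2a 9.39-fold lower in mutants than in controls, and no mutant library reached any control library. For Doc2b, the deposited values (fragments scaled by 1 size factor per library) were 1753 in control 45, 1223 in control 144a, 872 in control 48, 462 in control 144b and 361 in control 176. In mutants they were 323 in library 191, 172 in library 167, 116 in library 74, 25.7 in library 61 and 15.3 in library 103. The groups did not overlap, although the highest mutant, 191, lay close to the lowest control, 176. On the log2(value + 1) scale, controls had a Doc2b level of 9.63 ± 0.95 and mutants one of 6.28 ± 1.83 (SD, n = 5 libraries each), which made mutants 10.2-fold lower (log2 difference -3.35). Here and below, controls 144a and 144b, which carry 1 animal number, count as separate libraries. The lowest value rested on 15 fragments, 0.245 per M with a 95% Wilson interval of 0.148 to 0.404, which covers counting error only.

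Camk2a, the more abundant of the 2 RNAs in sorted PCs, had the same order of genotypes. Its values were 14626 in control 45, 10913 in control 144a, 10356 in control 144b, 7150 in control 176 and 7100 in control 48. The mutants had 5905 in library 191, 5556 in library 167, 679 in library 74, 348 in library 61 and 147 in library 103. The controls lay within a narrow range, the mutants fell into a higher pair just under the controls and 3 libraries far below, and the groups did not overlap. Controls had a log2 level of 13.24 ± 0.44 and mutants one of 10.01 ± 2.39 (SD, n = 5 libraries each), which made mutants 9.39-fold lower (log2 difference -3.23). Among all 16455 genes tested in sorted PCs, 0.0972% lay below the difference of Doc2b and 0.128% below that of Camk2a. For the background, 1.47% of these genes passed the thresholds used throughout (a fold above 2 with a limma p below 0.01 before adjustment) and 1.39% were lower in mutants with no overlap of the groups. In bulk RNA, fewer cells of a type and less RNA per cell cannot be told apart.

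**Figure D1:**
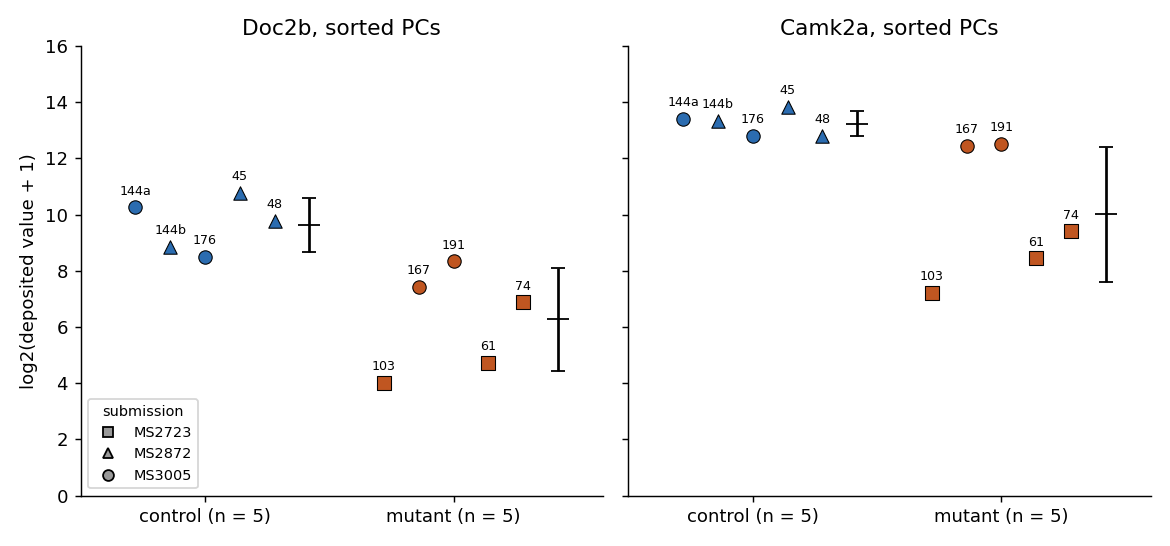
Doc2b (left) and Camk2a (right) in each sorted library, as log2(deposited value + 1), by genotype. Points are libraries with their numbers, shapes give the submission, and bars are the mean and SD of each genotype (n = 5). The 3 mutants of submission MS2723 are the lowest libraries for both genes, and mutants 167 and 191 of submission MS3005 lie nearest to the controls.

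The higher pair of mutants was also the pair that shared a submission with controls. By the sample labels, mutants 61, 74 and 103 belonged to submission MS2723, controls 45, 48 and 144b to MS2872, and mutants 167 and 191 and controls 144a and 176 to MS3005, so only MS3005 held both genotypes. Within MS3005, Doc2b was lower in mutants by 1.49 on the log2 scale (2.81-fold lower) and Camk2a by 0.62 (1.54-fold lower), with 2 libraries per genotype. The genotypes did not overlap in that submission for either gene, as for 15.5% of all genes, which were likewise lower in both mutants. Among the mutants alone, those of MS2723 minus those of MS3005 gave a log2 difference of -2.67 (6.39-fold lower) for Doc2b and of -4.13 (17.5-fold lower) for Camk2a. For both genes, the difference between submissions within mutants was therefore larger than the difference between genotypes within MS3005. The means of the controls of MS2872 and MS3005 differed less, by 0.42 for Doc2b and 0.21 for Camk2a, both higher in MS2872. Controls 144a (MS3005) and 144b (MS2872), which carry 1 animal number, went the other way for Doc2b, with log2 levels of 10.26 and 8.85. For Camk2a they were nearly level, at 13.41 and 13.34, and also lower in MS2872. Since MS2723 held mutants only and MS2872 controls only, submission and genotype cannot be told apart for those 6 libraries.

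On ribosomes the large decrease found over all sorted libraries was not seen for either gene. For Camk2a, however, the TRAP difference without rapamycin (log2 -0.54) was close to the sorted difference within MS3005 (-0.62). For Doc2b the sorted difference within MS3005 was -1.49. Without rapamycin, the TRAP values of Doc2b were 211, 157 and 197 in control libraries 1, 2 and 3, and 257, 265 and 224 in mutant libraries 1, 2 and 3. Every mutant library was above every control library in these values, but by a small margin. In fragments per M of a library, without the authors' size factors, Doc2b was at 50.6, 43.7 and 55.5 in controls 1, 2 and 3 and at 48.8, 51.5 and 260.1 in mutants 1, 2 and 3. On that scale the groups overlapped, and mutant 3, the library that stood apart, lay far above all others. The log2 difference was 0.41 (SE 0.33, 95% interval -0.36 to 1.18), with a limma adjusted p of 0.768 over 9658 genes. The exact two-sided permutation test gave p = 0.1, the smallest that 3 libraries against 3 allow. Of all genes tested, 8.55% were likewise higher in mutants with no overlap, and 1.96% passed the thresholds, which Doc2b did not. With values scaled to equal totals the log2 difference was 0.81 (limma adjusted p = 0.999).

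Camk2a had TRAP values of 172, 75.3 and 117 in control libraries 1, 2 and 3, and of 84.4, 97.9 and 58.9 in mutant libraries 1, 2 and 3. The groups overlapped, with control 2 below mutants 1 and 2. The log2 difference was -0.54 (SE 0.43, 95% interval -1.55 to 0.47; limma adjusted p = 0.768, exact two-sided permutation p = 0.3). With values scaled to equal totals it was -0.15 (limma adjusted p = 0.999). Camk2a rested on 43 to 194 fragments per mutant TRAP library and Doc2b on 131 to 738. Without mutant library 3, the library that stood apart, the differences were 0.48 for Doc2b and -0.33 for Camk2a. The summed astroglial markers Apoe and Gfap (2 of 8 named) were 358 to 487 in these mutant libraries and 55.1 to 153 in the controls, while the summed PC markers were 11207 to 11443 and 11292 to 12723, and the part of glial RNA in the Doc2b and Camk2a values was not tested.

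**Figure D2:**
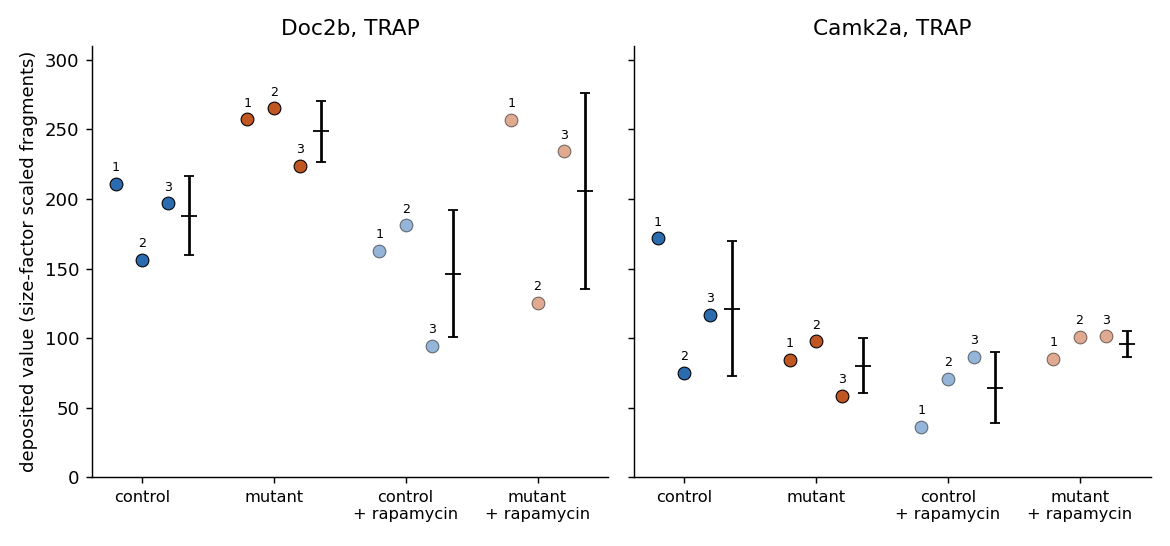
Doc2b (left) and Camk2a (right) in each of the 12 TRAP libraries, as deposited values on a linear axis from 0. Points are libraries with their replicate numbers, pale points had rapamycin, and bars are the mean and SD (n = 3). The Doc2b values of untreated mutants (224 to 265) lie above those of untreated controls (157 to 211), and the groups overlap in every other contrast of genotype or rapamycin.

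Rapamycin moved neither gene past the thresholds in either genotype. With rapamycin, Doc2b had values of 163, 181 and 94.8 in control libraries 1, 2 and 3 and of 257, 126 and 234 in mutant libraries 1, 2 and 3. Both treated groups spread more widely than the untreated ones and overlapped with them. In controls the log2 difference of treated minus untreated libraries was -0.40 for Doc2b (95% interval -1.74 to 0.94, limma adjusted p = 0.908, exact permutation p = 0.3), where 1.05% of genes passed. In mutants it was -0.34 (95% interval -1.24 to 0.57, limma adjusted p = 0.792, exact permutation p = 0.5), where 1.75% passed. This value moved to -0.015 without treated mutant library 2 and to -1.12 with values scaled to equal totals. The median difference of all genes tested was -0.31 in controls and -0.04 in mutants, so that Doc2b in controls was lower by about the shift of all genes.

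Camk2a had values of 36.4, 70.7 and 86.7 in control libraries 1, 2 and 3 with rapamycin, against 85.0, 101 and 102 in mutant libraries 1, 2 and 3 with rapamycin. In controls, 2 of the 3 treated libraries were below all untreated ones. The log2 difference was -0.91 in controls (95% interval -2.43 to 0.61, limma adjusted p = 0.862, exact permutation p = 0.2) and 0.28 in mutants (95% interval -0.52 to 1.07, limma adjusted p = 0.805, exact permutation p = 0.2). The points thus lay on opposite sides of 0, but the difference in mutants was -0.50 with values scaled to equal totals. The interaction of genotype and rapamycin, 1.19 (SE 0.68, 95% interval -0.31 to 2.69), had a limma adjusted p of 0.859 and was 0.37 with values scaled to equal totals. For Doc2b the interaction was 0.07 (SE 0.63, 95% interval -1.31 to 1.45, limma adjusted p = 0.993), and 1.91% of all genes passed the thresholds for it. The median interaction of all genes was 0.33, and 74.5% of genes lay below Camk2a. Summed PC markers were 8236 to 9988 in treated controls, below the 11292 to 12723 of untreated controls, and their part in the lower Camk2a values was not tested.

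Under rapamycin, the genotypes overlapped for both genes. The difference of mutant minus control was 0.48 for Doc2b (95% interval -0.94 to 1.89, limma adjusted p = 0.894, exact permutation p = 0.4) and 0.65 for Camk2a (95% interval -0.71 to 2.01, limma adjusted p = 0.873, exact permutation p = 0.2). Here 1.23% of genes passed the thresholds and the median of all genes was 0.32, so that neither gene stood far from the shift of all genes. Only Camk2a control library 3 reached above a mutant library, and for Doc2b mutant library 2 lay below control libraries 1 and 2.

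All 12 TRAP libraries were also pooled, and neither gene passed the thresholds. Over both treatments, Doc2b was 0.44 higher in mutants on the log2 scale (95% interval -0.22 to 1.11, limma adjusted p = 0.703), with an exact permutation p of 0.085 within treatments, whose smallest possible p is 0.005. For Camk2a this difference was 0.05 (95% interval -0.76 to 0.86, limma adjusted p = 0.969, exact permutation p = 0.88). In this comparison 2.38% of genes passed and the median of all genes was 0.25, so that relative to that shift Camk2a lay on the lower side and Doc2b stayed on the higher side. Over both genotypes, the difference with rapamycin was -0.37 for Doc2b (95% interval -1.03 to 0.30, limma adjusted p = 0.720, exact permutation p = 0.135) and -0.32 for Camk2a (95% interval -1.13 to 0.50, limma adjusted p = 0.798, exact permutation p = 0.405), where 1.79% of genes passed and the median was -0.22. These comparisons share libraries with each other and with the single contrasts above.

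**Figure D3:**
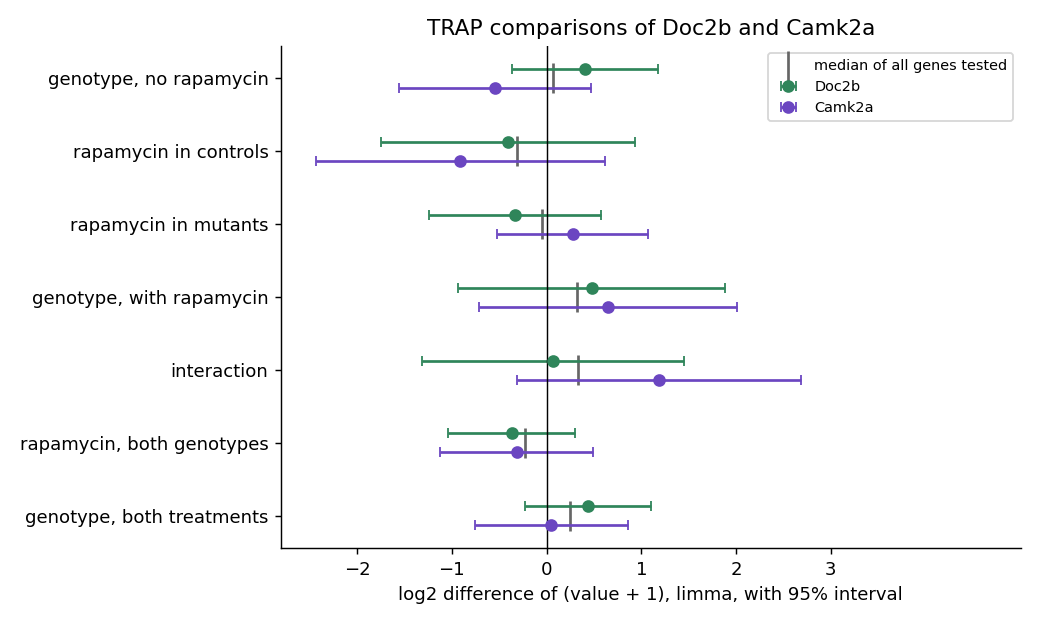
Log2 differences of Doc2b and Camk2a in the 7 TRAP comparisons, with the 95% interval of the limma fit and a grey tick at the median of all genes tested. Every interval includes 0, and the widest belong to Camk2a under rapamycin in controls (-2.43 to 0.61) and to the interaction of genotype and rapamycin in Camk2a (-0.31 to 2.69).

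The order of the 2 genes within a library was reversed between the sorted and the TRAP libraries. Their ratio within a library, with each value divided by the length of its reference transcript in kb, does not depend on the scaling of libraries. By the paper's account the assays differed in library preparation, so that for this ratio the RNA pool and the preparation cannot be told apart. Camk2a per kb exceeded Doc2b per kb in all 10 sorted libraries, by 7.14 to 19.7 times in controls (geometric mean 10.7) and by 5.12 to 28.3 times in mutants (geometric mean 11.9). Mutants and controls overlapped in this ratio. In all 12 TRAP libraries Camk2a per kb was instead below Doc2b per kb. The ratio was 0.422 to 0.715 in untreated controls (geometric mean 0.540) and 0.231 to 0.324 in untreated mutants (geometric mean 0.278), without overlap.

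For this ratio, the log2 difference of mutants minus controls without rapamycin was -0.96 (exact two-sided permutation p = 0.1, the smallest possible). The ratio was 0.196 to 0.803 in controls and 0.290 to 0.706 in mutants with rapamycin, which overlapped (log2 difference 0.18, exact permutation p = 0.9). Over both treatments the genotype difference was -0.39 (exact permutation p = 0.34), so that the separation in untreated libraries was not carried by all 12. The log2 difference of the ratio with minus without rapamycin was -0.51 in controls and 0.62 in mutants (exact permutation p = 0.5 and p = 0.2). Adjusted over the 6 exact permutation tests of this ratio, the Benjamini-Hochberg p was 0.6 to 0.9.

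**Figure D4:**
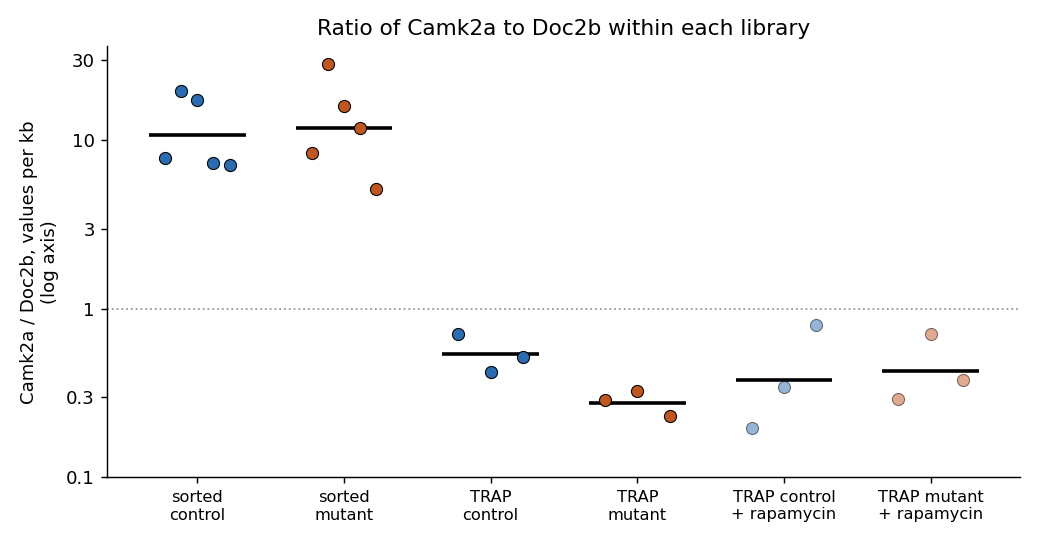
Ratio of Camk2a to Doc2b within each library, both as deposited value per kb of reference transcript, on a log axis. Points are libraries (n = 5 in each sorted group, n = 3 in each TRAP group), lines are geometric means and the dotted line marks equal levels. All sorted libraries lie above 1 (5.12 to 28.3) and all TRAP libraries below it (0.196 to 0.803).

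The place of Doc2b among all loci also differed between the assays, while that of Camk2a in sorted controls overlapped with that in untreated TRAP controls. Among the loci of a library above a floor set just over 0, Doc2b stood at the 59.3rd to 74.2nd percentile in sorted controls, the 32.9th to 60.5th in sorted mutants and the 91.4th to 98.9th over all TRAP libraries. Camk2a stood at the 92.8th to 97.3rd percentile in sorted controls and the 58.4th to 92.3rd in sorted mutants. It stood at the 62.8th to 96.7th over all TRAP libraries and at the 91.9th to 96.7th in untreated TRAP controls. Doc2b thus ranked higher among ribosome-bound RNAs than in total RNA in every library compared. The mean TRAP level minus the mean sorted level in controls was -2.08 (log2) for Doc2b and -6.38 for Camk2a, against a median of -7.03 over 9374 genes, and 98.8% and 68.5% of genes lay below them. In mutants these values were 1.68 and -3.69, with 99.8% and 94.8% of genes below. The mutant values contain the low sorted mutant levels by which the genes were selected, so their place follows in part from that choice. The tables were scaled separately and their libraries differed in animals, preparation and depth. Only the place among genes can thus be read from these differences, with that limit in mutants.

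The change in TRAP relative to total RNA between genotypes (ΔTE) was 3.76 for Doc2b and 2.69 for Camk2a on the log2 scale. Both values contain the sorted difference by which the genes were selected and carry no test. With sorted libraries of MS3005 alone, ΔTE was 1.90 for Doc2b and 0.08 for Camk2a. Little of ΔTE thus remained for Camk2a with these 4 libraries, and more of it for Doc2b.

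Genes that work with DOC2B in calcium-triggered vesicle release were read from a list of 31, of which 6 had a named locus with a sure match and 5 passed the filter. Apart from Doc2b, which was selected on this contrast, all 4 were lower in sorted mutants, with a median of -1.60 against 0.03 over all genes. Against 1.47% of all genes tested, 1 of the 4 passed the thresholds, the vesicle SNARE Vamp2 (-1.02, limma adjusted p = 0.394). Since named loci are genes that the study found changed or selected, these counts are not independent evidence of a direction. Syt7, a synaptotagmin of delayed release, had a difference of -2.08, Rims4, an active zone protein, of -1.68, and Cplx1, a SNARE-binding complexin, of -1.52, and these did not pass. Within MS3005 the differences were -0.62 for Syt7, 0.01 for Rims4, -0.20 for Cplx1 and -0.21 for Vamp2, all smaller than the -1.49 of Doc2b. On ribosomes, the median of all 5 genes against that of all genes was 0.59 against 0.07 for genotype without rapamycin, 0.19 against 0.32 for genotype with rapamycin, -0.22 against -0.31 for rapamycin in controls and -0.62 against -0.04 for rapamycin in mutants, and none passed. These contrasts share libraries. Without rapamycin, Rims4 had the largest genotype difference (1.47, limma adjusted p = 0.577), followed by Cplx1 (1.07, limma adjusted p = 0.553), Syt7 (0.59), Doc2b (0.41) and Vamp2 (0.25). A locus assigned to Cplx2 only by overlap on the other strand had -4.54 in sorted PCs and is uncertain.

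Of 22 genes listed under calmodulin and CaM kinases, which include genes that are neither, such as Ppp1r1b, 9 had a named locus. Apart from Camk2a, which was selected on this contrast, all 8 were lower in sorted mutants, with a median of -1.24. Against 1.47% of all genes tested, 5 of these named genes passed the thresholds. Among these were Camk2n2 (-1.64), which with Camk2n1 (-1.12) encodes an inhibitor of CaMKII, Nrgn (-1.52), a calmodulin-binding protein, and Ppp1r1b (-1.18), a phosphatase inhibitor, each with a limma adjusted p of 0.394. Camk2b, the beta subunit, had a difference of -1.39 that did not pass (limma adjusted p = 0.451), and of -0.01 within MS3005, against -0.62 for Camk2a. In MS3005 the differences of Ppp1r1b (-1.03), Camk2n1 (-0.91) and Camk2n2 (-0.77) were larger than that of Camk2a.

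The median of Camk2b per kb was above that of Camk2a in all 6 groups. Per kb, Camk2b was at 5350 to 14866 in sorted controls, where Camk2a was at 1429 to 2943, and at 514 to 6075 in sorted mutants, where Camk2a was at 29.5 to 1188. In untreated TRAP libraries Camk2b per kb was 81.6 to 135 in controls and 128 to 178 in mutants, against 15.1 to 34.6 and 11.8 to 19.7 for Camk2a. By the median per kb, the beta subunit was thus the more abundant RNA in both assays, with no overlap per kb in the controls of either assay or in the untreated TRAP mutants. The Camk2b locus matched its reference transcript only in part, which makes its length less certain. Before division by length, sorted controls overlapped (Camk2b 11892 to 33048, Camk2a 7100 to 14626), while untreated TRAP controls did not (181 to 299 and 75.3 to 172). Of the 8 genes of this list tested on ribosomes, none passed in the genotype comparison without rapamycin (6 above and 2 below 0, median 0.25), and Camk2a and Camk2n2 (-0.55) were the 2 below 0.

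Of 26 postsynaptic density partners of CaMKII, 8 had a named locus with a sure match. In sorted PCs, where 1.47% of all genes tested passed in either direction, 4 of them passed as lower in mutants. These were the scaffolds Shank2 (-2.73), Homer3 (-2.46) and Shank1 (-2.39) and Grid2ip (-2.54). Grin2b, the NMDA receptor subunit that binds CaMKII, passed as higher (1.50; limma adjusted p = 0.394 for all 5), and it was 1.14 higher within MS3005. The lower genes differed less in that submission, by -0.59 for Shank2, -0.92 for Homer3, -0.74 for Shank1 and -0.63 for Grid2ip. The median of the list was -2.15. On ribosomes without rapamycin none of 7 tested passed, and the median was 0.02, with Shank2 at 0.42 and Grid2ip at -0.41. None of the genes of the 3 lists passed the thresholds in any of the 7 TRAP comparisons. The named loci are genes that the study found changed or selected on these libraries, so that the counts in sorted PCs are not independent evidence of a direction.

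**Figure D5:**
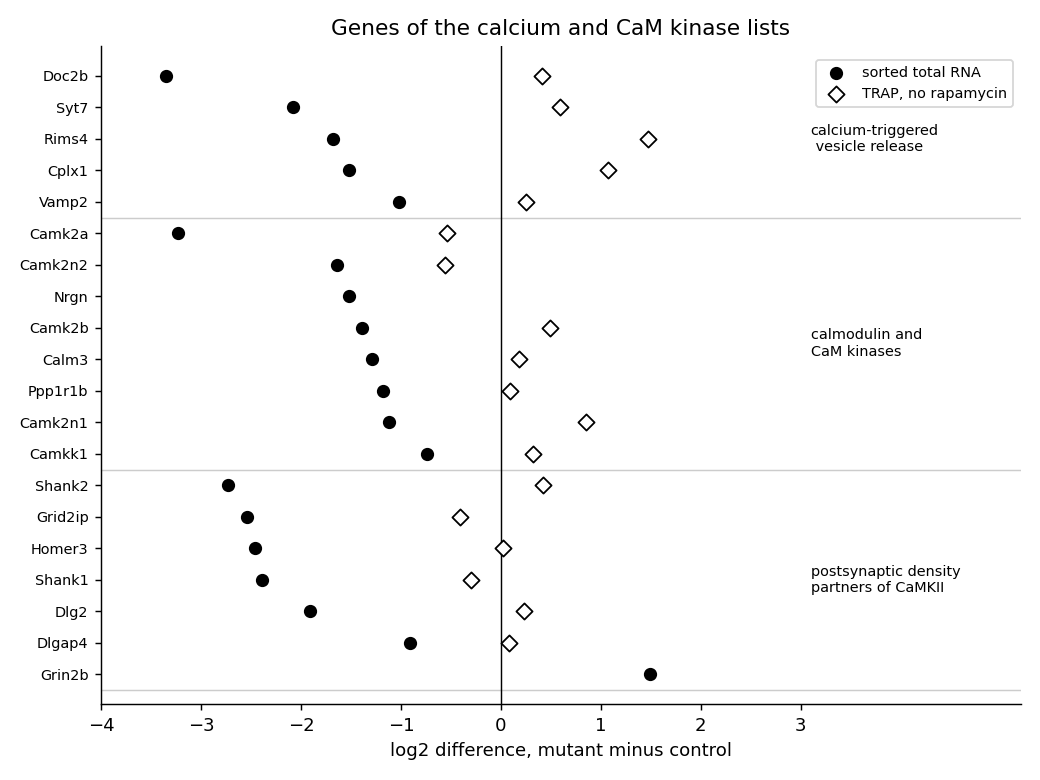
Log2 difference of mutant minus control for named genes of the 3 lists, in sorted total RNA (filled circles) and in TRAP without rapamycin (open diamonds). Doc2b (-3.35) and Camk2a (-3.23) were selected on the sorted contrast, so their place as the largest decreases shown follows from that choice. Loci with an uncertain match are not shown, among them the Cplx2 locus (-4.54). The TRAP differences shown lie between -0.55 and 1.47. Nrgn and Grin2b did not pass the filter for this TRAP comparison and have a circle only.

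The genes whose pattern over the 10 sorted libraries was nearest to the members were found among 1236 named loci by the root mean square (RMS) of the difference in centred log2 values, where the members' own RMS was 2.12 for Doc2b and 2.23 for Camk2a. Nearest to Doc2b were Slc32a1 (0.38), the vesicular transporter of inhibitory transmitters, Gm10190 (0.43) and Shank2 (0.51). Nearest to Camk2a were Pkp3 (0.29), a plakophilin, Zfp385c (0.30), a zinc finger protein, and Arhgef33 (0.37), a putative exchange factor. The 2 members stood at 0.76 from each other, so that Camk2a came at rank 27 for Doc2b and Doc2b at rank 28 for Camk2a. These ranks share libraries, genotype and submission, and are a description of 10 libraries.

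Slc32a1 followed Doc2b in sorted PCs, from a log2 level of 8.97 ± 1.03 in controls to one of 5.78 ± 1.77 in mutants (SD, n = 5 libraries each). Pkp3 followed Camk2a, from 11.88 ± 0.52 to 8.89 ± 2.12 (SD, n = 5 libraries each). The summed values of Gad1 and Tfap2b, the 2 of 7 interneuron markers with a named locus, moved the same way, from 3941 to 8231 in sorted controls to 142 to 3049 in sorted mutants. Gad1 is also expressed by PCs. The summed astroglial markers, 105890 to 271060 in controls and 185180 to 274140 in mutants, overlapped, as did Csf1r of microglia (7597 to 30542 and 9088 to 22126) and Flt1 of vascular cells (3398 to 10980 and 963 to 11529), and no granule cell or oligodendrocyte marker had a named locus. The part of other cell types in the sorted levels of Doc2b and Camk2a was not tested.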

How the data were processed

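The labels name the SMART-Seq v4 kit, which does not mark strand, for all libraries, but the methods name it for sorted RNA only, and the paper describes the preparations of the assays as different. Reads were paired-end. Per the submitters' processing notes, the authors used Trimmomatic 0.39, STAR 2.7.0f and Cufflinks 2.2.1 with GRCm38. The deposited unit is a signal, which the authors made by dividing estimated fragment counts by 1 size factor per library, in 1 table for sorted PCs and 1 for TRAP. From the step between the lowest values of a library, depth was expressed in fragments (79.2% to 81.3% of sorted and 85.8% to 96.0% of TRAP values were whole within 0.05). Since this is not nearly all values, no main result rests on a count test. Limma-voom on the estimated fragments served only as an alternative in TRAP. The columns of the authors' own comparisons in the supplementary files were not used, and these files served only to pair loci with names.

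The log2(value + 1) was fitted with limma 3.58.1 in R 4.3.3 over all genes whose mean reached 5 in sorted PCs or 2 in TRAP, the adjusted p being Benjamini-Hochberg over these genes. A log2 fold change on this scale understates the change of low genes. Single genes were also compared by exact permutation of libraries, within strata for pooled contrasts. Alternatives were other pseudocounts and scalings, no filter, an intensity trend, a replicate block, submission number as a term or only MS3005, libraries 144a and 144b averaged, all TRAP groups in 1 fit and each library left out. Limma-voom and the within-library ratio were added after seeing the data. The code was checked on simulated data. Doc2b, Camk2a, the gene lists and markers were chosen with earlier results of these data known. Named were the members, the listed genes past the thresholds or with the 3 largest differences, Camk2b, and the 3 nearest patterns. Results of 2 listed genes are not reported here. Any other listed gene was picked with its values in view. The age, RNA quality and protein of these genes were not analysed here. Figures were drawn with matplotlib 3.10.9.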

Additional observations from a re-analysis of the deposited data

How the results depend on the processing

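Over 240 alternatives of the TRAP differences of Doc2b and Camk2a, none passed the thresholds (the smallest limma adjusted p was 0.407), and 227 kept their direction. The 13 that turned it were in 3 results, with main values of 0.05, 0.07 and 0.28 in the order given next. The Camk2a genotype difference over both treatments was -0.14 by limma-voom and -0.17 to 0.25 with a library left out. The Doc2b interaction was -0.035 with quantile normalization, -0.75 with values scaled to equal totals and -0.22 to 0.39 with a library left out. The Camk2a difference with rapamycin in mutants was -0.50 with equal totals. Without rapamycin, the genotype difference stayed between 0.28 and 0.81 for Doc2b and between -0.84 and -0.15 for Camk2a over all alternatives. In sorted PCs, submission number as a term or MS3005 alone gave -1.49 for Doc2b and -0.62 for Camk2a (ΔTE 1.90 and 0.084), and leaving out a library gave -3.86 to -2.79 and -3.86 to -2.53 (ΔTE 3.19 to 4.27 and 1.99 to 3.32).

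TRAP replicate numbers were treated as names of libraries only. Correlations of same-numbered deviations were -0.08 to 0.05, which cannot show that these libraries share no batch. With a replicate block the genotype difference without rapamycin was 0.41 for Doc2b (limma adjusted p = 0.819) and -0.54 for Camk2a (limma adjusted p = 0.803), and the block changed no call of the members. Without passing, other values also moved by more than 1.5 times: the Doc2b difference with rapamycin in mutants ranged from -1.12 (equal totals) to -0.015 (without treated mutant 2), the Doc2b genotype difference under rapamycin from 0.06 (equal totals) to 0.80 (without treated mutant 2) and the Camk2a interaction from 0.37 (equal totals) to 1.49 (without untreated control 2). The count of all genes past the thresholds moved more: 242 in sorted PCs ranged from 33 (submission as a term) to 280, and from 104 to 530 with a library left out. In TRAP with all libraries, the 189, 91, 169 and 107 genes of the 4 single contrasts ranged from 65 to 441, 39 to 509, 59 to 410 and 55 to 535, the highest in each without the filter on low values, and the 175, 164 and 218 of the interaction and the pooled contrasts from 28 to 381, 81 to 355 and 121 to 419. With a library left out, the counts of the single contrasts ranged from 98 to 354, 29 to 434, 72 to 221 and 36 to 430, and the others from 121 to 529, 98 to 272 and 127 to 344. Camk2a rested on 38 to 210 fragments per TRAP library, and the part of counting error in the width of the intervals was not tested. Differences of any size within the intervals given remain compatible with these libraries.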
